A study of Mus musculus with 50 samples.

Results

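Interferon-stimulated genes (ISGs) are the genes that a cell switches on after an interferon has bound its receptor. The 42 ISGs described here were chosen by gene symbol from the count table of 45792 gene rows, and all 42 were found once each and passed the filter on low counts in every comparison. They fall into 6 roles: 3 nucleic acid sensors, 4 transcription factors, 21 antiviral effectors, 3 genes of ISG15 conjugation, 8 GTPases of the guanylate-binding protein (GBP) and immunity-related GTPase (IRG) families, and 3 genes of antigen processing.

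Type I interferons (the alpha and beta forms) and type III interferons (lambda) signal through the kinases Jak1 and Tyk2 to a complex that includes Stat2 and Irf9 and binds the interferon-stimulated response element (ISRE). Type II interferon (gamma) signals through Jak1 and Jak2 to the gamma-activated site (GAS) and induces Irf1, the GBP and IRG families and the immunoproteasome. In liver both hepatocytes and resident or infiltrating immune cells respond, and interferon gamma is made mainly by T cells and natural killer (NK) cells.

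The libraries are bulk RNA-seq of C3H/He mouse liver, all harvested at 48 weeks, and 49 of them were used. Non-tumour liver came from mice on the control diet (12 libraries, N1 to N12) or on ALIOS, the American lifestyle diet (11 libraries, N13 to N23). Tumours that had received no DEN, a hepatocarcinogen, came from ALIOS mice (12 libraries used, with T1 not used here) or from 1 control-diet mouse (T7). Tumours labelled DEN came from control-diet mice (5 libraries, T17 to T21) and from ALIOS mice (8 libraries, T15, T16 and T22 to T27). No non-tumour liver was labelled DEN, so in the DEN tumours the effects of tumour and of DEN cannot be told apart, and the labels do not say whether samples sharing a number came from 1 animal. C3H/He is an inbred strain prone to liver tumours, and the tissue was a whole piece of liver or tumour, so fewer cells of a type and less RNA per cell cannot be told apart in any value below.

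Total counts ran from 23798251 to 45751398 per library. The 10 hepatocyte markers were present in every group, with a summed level of 83305 to 247310 CPM (counts per 1000000, scaled to library size and composition). No library pair differed by less than sampling noise. p-values measure the spread between libraries, and all adjusted p-values are from the edgeR quasi-likelihood test with Benjamini-Hochberg adjustment over all genes tested, unless another tool is named. Log2 fold changes are given ± SE.

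Control-diet liver N6 stood apart from every other library in these genes. It was above each of the other 11 control-diet livers in 39 of the 42 ISGs and was the highest of all 49 libraries in 29. Counts of ISGs in the comparisons that use the control-diet livers are therefore given with and without N6. Since N6 was singled out by its ISG levels, values without it are descriptions of the remaining livers and no independent test.

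The DNA just upstream of the gene starts shows which of the ISGs carry the ISRE and GAS letters. A window of 250 bases before and 50 after the start was available for 32 of the 42 ISGs from RefSeq (build GRCm38.p6). GAAANNGAAA on either strand was taken as the ISRE core, and TTCNNNGAA, which reads the same on both strands, as the GAS core. Overlapping matches were counted separately. The stretches of 140 bases directly upstream of 6 gene starts are shown, read along the gene's own strand, with ISRE and GAS letters in capitals. They were chosen as examples of repeated, single and neighbouring motifs in genes that the results turn on, and none of these bases lies in an annotated exon.
Isg15, chr4:156200819-156200958, minus strand: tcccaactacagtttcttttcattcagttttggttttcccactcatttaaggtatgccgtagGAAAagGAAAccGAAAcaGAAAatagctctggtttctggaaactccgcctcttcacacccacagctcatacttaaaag
Ifit3, chr19:34583389-34583528, plus strand: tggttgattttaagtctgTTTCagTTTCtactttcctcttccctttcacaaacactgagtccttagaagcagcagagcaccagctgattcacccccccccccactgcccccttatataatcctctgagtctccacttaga
Oas1a, chr5:120907526-120907665, minus strand: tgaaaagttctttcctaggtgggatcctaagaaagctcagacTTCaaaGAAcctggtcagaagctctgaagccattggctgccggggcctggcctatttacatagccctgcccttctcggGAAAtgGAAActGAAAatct
Igtp, chr11:58199416-58199555, plus strand: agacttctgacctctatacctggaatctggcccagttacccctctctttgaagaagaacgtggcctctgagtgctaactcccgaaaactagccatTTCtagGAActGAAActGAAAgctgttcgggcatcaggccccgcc
Irgm2, chr11:58214837-58214976, plus strand: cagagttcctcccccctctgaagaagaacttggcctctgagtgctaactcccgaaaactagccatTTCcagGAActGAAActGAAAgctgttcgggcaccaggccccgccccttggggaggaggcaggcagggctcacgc
Irf1, chr11:53769874-53770013, plus strand: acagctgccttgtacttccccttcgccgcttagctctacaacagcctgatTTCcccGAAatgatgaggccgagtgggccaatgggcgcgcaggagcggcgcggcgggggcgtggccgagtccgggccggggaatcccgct
Isg15 held 3 overlapping ISRE matches in a row, and Ifit3 held 1 on the opposite strand. In Igtp and Irgm2, neighbouring IRG genes, a GAS match lay just upstream of an ISRE match, with the bases ct between them, and 100 of 110 aligned bases (90.9%) were identical between them. Irf1 held a GAS match and no ISRE match in this stretch.

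Over the windows, an ISRE match was found in 17 of the 32 ISGs (53.1%) against 3.99% of all 27025 genes with a window. A GAS match was found in 11 of 32 (34.4%) against 9.55% of all genes. All 6 GTPases with a window and both sensors with a window held the ISRE letters, as did 7 of 15 antiviral effectors, 1 of 4 transcription factors, 1 of 2 ISG15 conjugation genes and 0 of 3 antigen processing genes. The 8 interferon receptor and kinase genes with a window held no ISRE match, and 10 of 25 other interferon-induced genes did. A match describes the letters only and does not show a factor bound there.

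Levels between genes were compared per kilobase of exon, as the median over the 12 control-diet livers, N6 included. Bst2 (tetherin, which holds budding virions on the cell) was highest at 229.56 CPM per kb, followed by Ifi27, a mitochondrial ISG, at 160.53 and the IRG GTPase Iigp1 at 54.55. Oas3, Mx1 and Gbp6 were lowest at 0.184, 0.279 and 0.305 CPM per kb. Some ISGs share sequence with close relatives, so the split of reads between them is uncertain: 64.5% of the 100-base words of Gbp6 also occur in other genes such as Gbp10 and Gbp11, 40.9% of those of Oas1a, chiefly in Oas1g, and 31.7% of those of Ifit3, chiefly in Ifit3b. Tap1 and Psmb9 overlap on opposite strands by 212 exonic bases, and the sources used here do not say whether counting used strand. Igtp and Irgm2 overlap on the same strand by 162 exonic bases, 8.01% of the exons of Igtp and 4.39% of those of Irgm2.

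**Figure D1:**
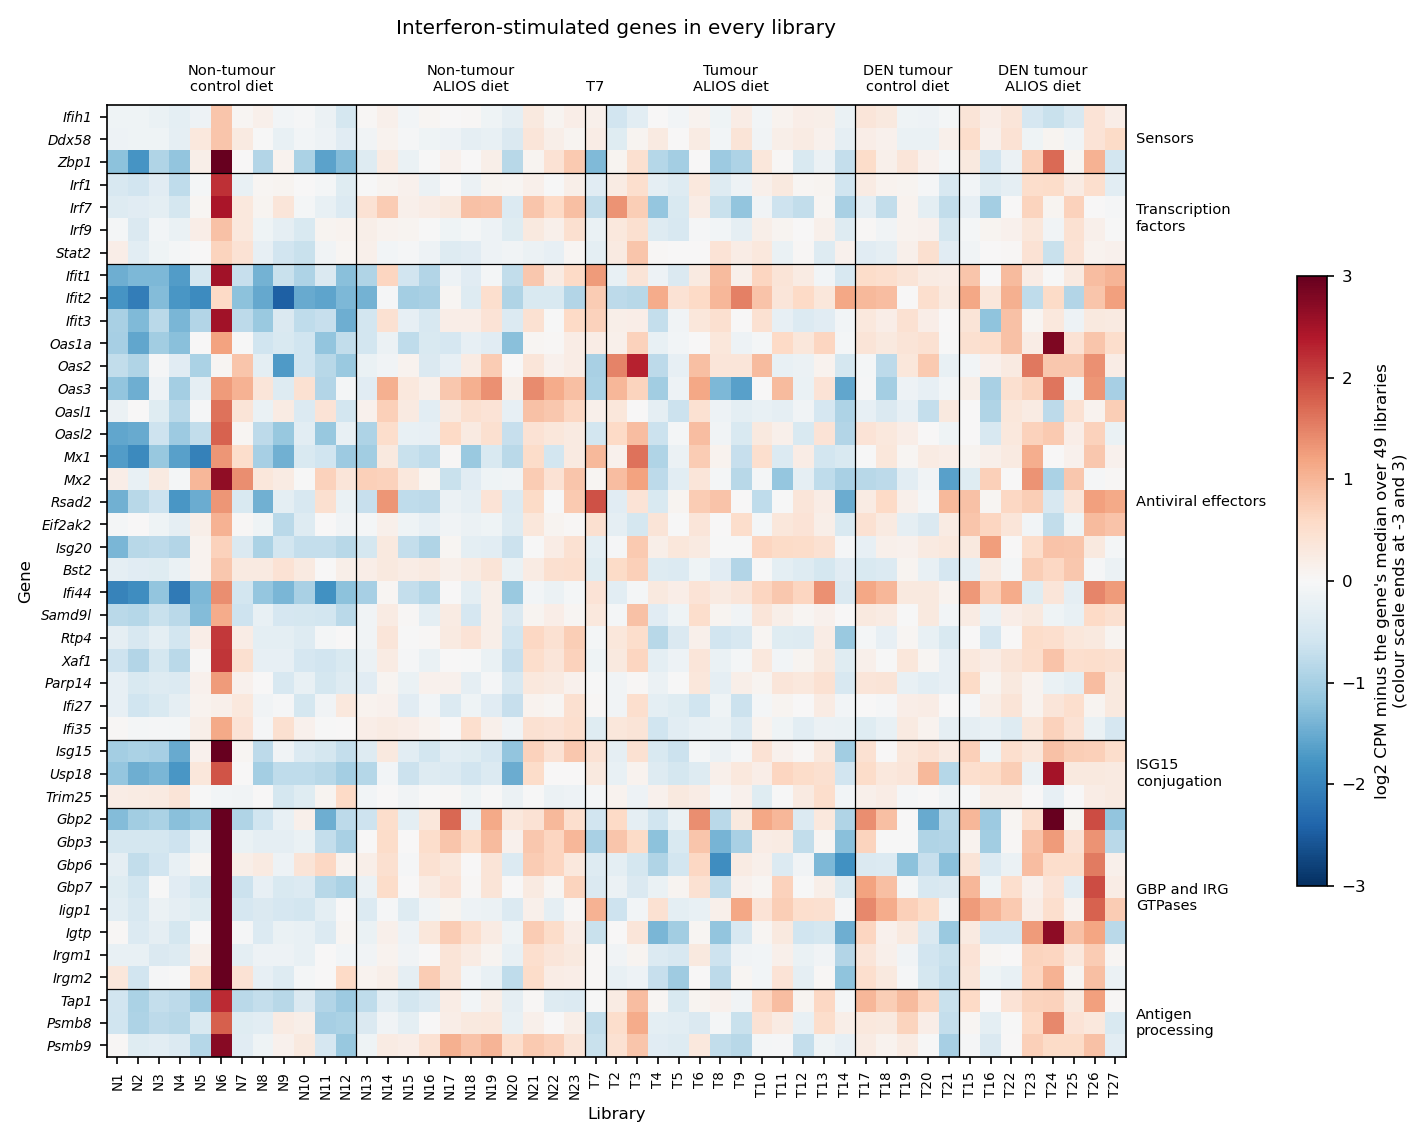
Log2 CPM of each of the 42 ISGs (rows, by role) in each of the 49 libraries (columns, by group), minus the gene's median over the 49 libraries, with the colour scale ending at -3 and 3. N6 is the dark red column among control-diet livers that are mostly blue, with N5 and N7 near 0 over the ISGs, and T24 and T26 hold the highest values of several genes among the DEN tumours.

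In N6, 28 of the 42 ISGs were at least 2-fold above the highest of the other control-diet livers, a mark that 0.955% of all 13723 genes tested passed (131 genes). N6 was a median of 5.34-fold above the median of the other control-diet livers over the 42 ISGs, against 1.003-fold over all genes tested. These are descriptions of 1 library, which has no replicate. The GTPases were furthest from their usual level: their median in N6 was 3.61 on the log2 scale above the median over 49 libraries, against 2.25 for antigen processing, 1.90 for ISG15 conjugation, 1.53 for transcription factors, 1.28 for antiviral effectors and 0.84 for sensors.

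Gbp2, a guanylate-binding GTPase that attacks vacuoles holding microbes, was at 115 CPM in N6, against 2.03 to 6.36 CPM (median 2.89) in the other control-diet livers, a ratio to the median of 39.7. Iigp1, which strips the vacuoles of intracellular parasites, was at 5365 CPM against 277 to 402 CPM, 17.2-fold. Igtp (Irgm3), a regulator of the IRG system, was at 1047 CPM against 44.7 to 67.1 CPM, 18.97-fold. In all 3 genes no other control-diet liver came near N6, and the highest tumour, T26 for Iigp1 at 1365 CPM and T24 for Igtp at 410 CPM, was still below it.

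Genes usually read as type I responses were high in N6 too. Zbp1, a sensor of Z-form nucleic acids, was at 194 CPM against 4.32 to 16.9 CPM in the other control-diet livers (25.2-fold), and Isg15, the ubiquitin-like protein, was at 216 CPM against 6.26 to 19.7 CPM (19.9-fold). Ifit1, which binds viral RNA lacking a host cap mark, was at 70.3 CPM against 3.73 to 8.98 CPM (13.9-fold). The transcription factors followed, with Irf7, the amplifier of interferon alpha, at 293 CPM (6.46-fold) and Irf1 at 163 CPM (5.32-fold). Ifi27 (1.20-fold) and Trim25, the ligase that activates the sensor RIG-I (0.883-fold), were the 2 ISGs nearest to or below the usual level.

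Other interferon-induced genes that are not among the 42 were also high in N6, 21 of 34 by the same 2-fold mark. Tgtp1, an IRG GTPase, was at 565 CPM against 0.778 to 5.25 CPM, Cxcl9, a chemokine that draws T cells, at 269.6 CPM against 4.97 to 44.7 CPM and Cxcl10 at 52.4 CPM against 0.489 to 1.80 CPM. Of the brakes, a separate list, Socs1, which inhibits the kinases, was at 3.95 CPM against 0.0395 to 0.287 CPM. Receptor genes were not among them: Ifngr1, the gamma receptor chain, was at 13.6 CPM in N6 against 13.4 to 20.9 CPM, and Ifnlr1, the lambda receptor chain, at 0.27 CPM against 0 to 0.527 CPM.

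The interferon genes themselves were nearly silent in the counts. Ifng had 11 counts in N6 (0.371 CPM), against 0 to 0.110 CPM (median 0) in the other control-diet livers. Libraries of the other groups reached at most 14 counts (T26). Of the 16 type I and III interferon genes, 4 had a count in any of the 49 libraries, and only Ifnk had more than 1 count in a library (5 in T24). The 10 T cell markers summed to 4.92 CPM in N6, within the 2.21 to 10.4 CPM of the control-diet livers, and the 7 NK markers to 2.66 CPM (range 0.498 to 3.61). Of the T cell sum 2.77 CPM was Cd4, while Cd3d, Cd3e, Cd3g and Trac had 5, 4, 8 and 1 counts in N6. The 10 macrophage markers summed to 305 CPM (range 211 to 561) and the 4 plasmacytoid dendritic cell markers to 24.2 CPM (range 20.8 to 35.0). Of this last sum 23.8 CPM was Tcf4, while Siglech, Ccr9 and Klk1 were at 0.202, 0.067 and 0.034 CPM. It therefore says little about plasmacytoid dendritic cells. The sums of these 4 lists lay within the control-diet range in N6, but single markers did not. The scavenger receptor Marco was at 19.9 CPM in N6 against at most 4.59 CPM in the other control-diet livers, and the NK protease gene Gzma at 1.012 CPM against at most 0.738 CPM. The Kupffer cell markers Vsig4 (8.06 CPM) and Clec4f (44.8 CPM) lay below all the other control-diet livers, whose lowest values were 16.03 and 55.9 CPM. Their part in the N6 values was not tested. ISGs with an ISRE match were a median of 9.47-fold above the other control-diet livers in N6 (1.63 to 39.7), and those with a window and no match 5.22-fold (0.883 to 8.49), which overlap.

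**Figure D2:**
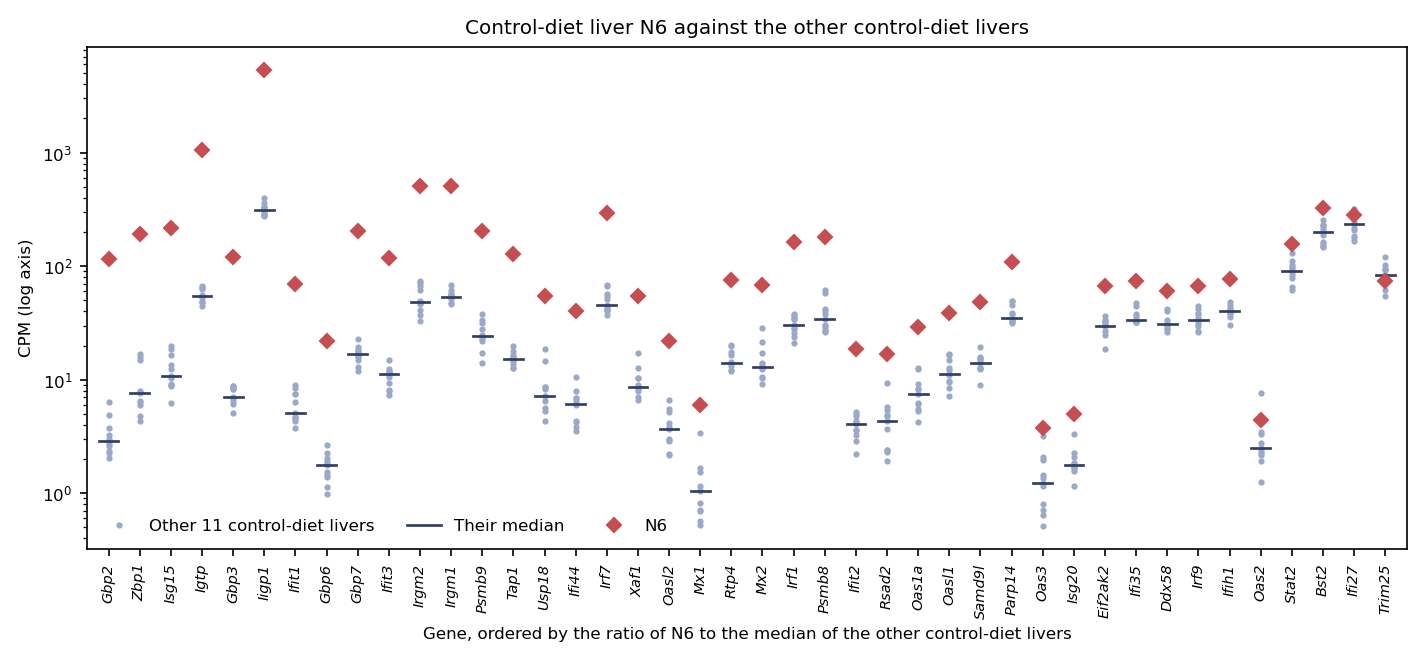
CPM (log axis) of the 42 ISGs in N6 (red diamonds) and in the other 11 control-diet livers (blue points, bar at their median), ordered by the ratio of N6 to that median. N6 lies above all other points for 39 genes, from Gbp2 at 39.7-fold, and within the points only for Oas2, Ifi27 and Trim25.

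The first comparison asks what the ALIOS diet did to ISGs in non-tumour liver. With all 12 control-diet livers, 0 of the 42 ISGs passed in either direction by edgeR, against 6.73% of all 13723 genes higher and 4.51% lower, and 4 were under an unadjusted p of 0.05. The median log2 fold change of the ISGs was 0.016, against -0.022 over all genes. DESeq2, which replaces outlying counts by default and so resets those of N6, called 14 higher, and 2 (Ifit2 and Oas3) without the replacement. With the replacement it called 2200 of all 13723 genes in either direction.

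Without N6, 20 of the 42 ISGs were higher on the ALIOS diet and 0 lower by edgeR, against 7.58% of all 13676 genes higher and 4.61% lower, with 29 under an unadjusted p of 0.05. The median log2 fold change of the ISGs was 0.49, against -0.019 over all genes. Leaving out any other liver in place of N6 gave 0 to 2, and fitting all 6 groups together without N6 gave fewer than 20, as given below. By role, 10 of 21 antiviral effectors, 5 of 8 GTPases, 3 of 3 antigen processing genes, 1 of 4 transcription factors and 1 of 3 sensors were higher, and 0 of 3 ISG15 conjugation genes (1 under an unadjusted p of 0.05).

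Among the effectors, the Ifit proteins showed the step most plainly. Ifit3 ran from 7.31 to 15.04 CPM (median 11.2) in the 11 control-diet livers other than N6, which was at 118 CPM, and from 13.995 to 31.1 CPM (median 23.5) in the ALIOS livers. Ifit2, which with Ifit3 forms an RNA-binding complex, ran from 2.20 to 5.22 CPM (median 4.05), with N6 at 18.6 CPM, and from 4.60 to 17.4 CPM (median 8.91) on ALIOS. In both genes the groups overlapped only at their edges once N6 was set aside. Ifit3 rose by 1.04 ± 0.15 (adjusted p = 0.00041) and Ifit2 by 1.20 ± 0.19 (adjusted p = 0.0012) without N6. With N6 the values were 0.17 ± 0.41 and 0.81 ± 0.29 (adjusted p = 0.068 for Ifit2).

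Gbp3 was the only ISG whose groups did not overlap without N6, a mark whose share over all genes is not given here. It ran from 5.14 to 8.78 CPM in the 11 control-diet livers and from 10.1 to 20.2 CPM in the ALIOS livers, while N6 was at 121 CPM. Gbp3 rose by 1.024 ± 0.13 without N6 (adjusted p = 0.00011) and its value with N6 was -0.16. Gbp2 ran from 2.03 to 6.36 CPM (median 2.89) and from 3.69 to 18.99 CPM (median 7.65), and rose by 1.39 ± 0.25 (adjusted p = 0.0023), against -0.56 with N6. Iigp1, the most abundant GTPase per kilobase, did not follow: 277 to 402 CPM against 302 to 447 CPM, at 0.19 ± 0.08 without N6 (adjusted p = 0.11) and -1.02 ± 0.48 with it (adjusted p = 0.16).

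Antigen processing moved in all 3 genes measured once N6 was left out. Psmb9, a catalytic subunit of the immunoproteasome, ran from 13.96 to 38.0 CPM (median 24.3) in the control-diet livers other than N6 (206 CPM) and from 28.2 to 64.4 CPM (median 43.9) on ALIOS, and rose by 0.86 ± 0.16 (adjusted p = 0.0026). Tap1, a peptide transporter into the endoplasmic reticulum, rose by 0.56 ± 0.11 (adjusted p = 0.0039) and the subunit Psmb8 by 0.48 ± 0.15 (adjusted p = 0.032). With N6 kept, Psmb9, Tap1 and Psmb8 were at 0.19, -0.12 and 0.09, and none passed. Both groups overlapped in all 3 genes.

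Among the factors that drive the response, Irf7 was the one that passed. It ran from 37.1 to 68.6 CPM (median 45.4) in the control-diet livers other than N6 (293 CPM) and from 40.1 to 99.5 CPM (median 80.9) on ALIOS, with N20 the low ALIOS liver. Irf7 rose by 0.64 ± 0.14 without N6 (adjusted p = 0.007) and was at 0.15 with it. Irf1 was at 0.25 ± 0.09 (adjusted p = 0.063), Irf9 at 0.12 and Stat2 at -0.04 without N6, against -0.19, 0.02 and -0.12 with it. Trim25 had the lowest value of the 42 without N6, at -0.19. N20 was below every other ALIOS liver in 20 ISGs, and N23 and N21 were above every other in 15 and 13. Such counts were made for the ISGs only, so a shift of a library over all genes cannot be told apart here.

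**Figure D3:**
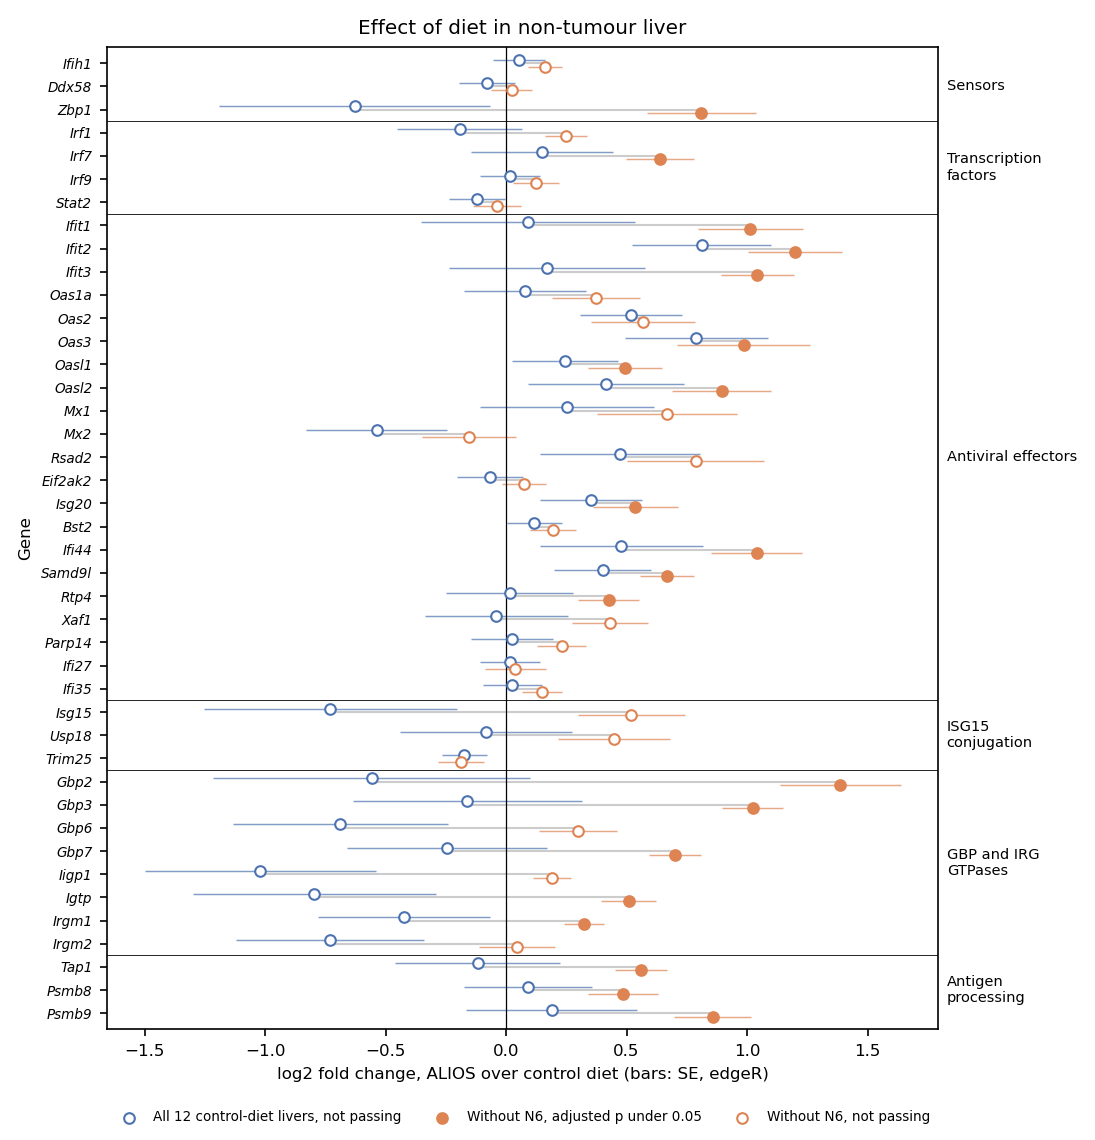
Log2 fold change of each ISG between ALIOS and control-diet non-tumour liver (edgeR, bars SE), with all 12 control-diet livers (blue) and without N6 (orange, filled where the adjusted p is under 0.05). Grey lines join both values of a gene; 20 genes are filled, and all 8 GTPases move from below 0 to above it.

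Other genes of the pathway gave the same contrast between the fits. Of the 34 other interferon-induced genes, 2 were higher with N6 (the class I genes H2-D1 at 0.62 and H2-K1 at 0.42) and 20 without it, among them Ube2l6, the ISG15-conjugating enzyme, at 0.38, Tap2 at 0.39 and the GTPase Tgtp2 at 1.15. Upstream, Ifngr1 was higher with all livers (0.25, adjusted p = 0.046), a call lost without N6 (0.23, adjusted p = 0.063), and Irf3, a factor that starts interferon transcription, was lower both with N6 (-0.21, adjusted p = 0.0074) and without it (-0.20, adjusted p = 0.010). Ptpn6, a phosphatase that damps the kinases, was higher at 0.41 with N6 and 0.43 without it. Of the 17 interferon genes 0 had counts enough to be tested.

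Immune markers differed between the diets in the same direction. Of 10 macrophage markers 8 were higher on ALIOS, with a median of 0.78, and their summed level ran from 211 to 561 CPM on the control diet and from 306 to 1154 CPM on ALIOS. Of the 10 T cell markers 4 could be tested and 3 were higher, with a summed level of 2.21 to 10.4 CPM against 3.97 to 21.8 CPM, and 1 of 2 testable NK markers (of 7) was higher, at 0.498 to 3.61 CPM against 0.453 to 8.13 CPM. No marker of these lists was at 0 in every library of a group. Their part in the diet values was not tested.

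The next comparison asks how ISGs differ between tumours without DEN and non-tumour liver, both on ALIOS. Here 7 ISGs were higher and 11 lower in the tumours, against 26.9% of all 14183 genes higher and 25.9% lower, so that the share of ISGs passing (18 of 42) was no larger than that of all genes. The median log2 fold change was -0.06 against 0.01 over all genes. By role, 4 antiviral effectors were higher and 4 lower, and of the GTPases 1 was higher and 5 lower. The comparison shares its ALIOS livers with that of the DEN tumours below.

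Ifit2 ran from 4.60 to 17.4 CPM (median 8.91) in the ALIOS livers and from 6.93 to 35.5 CPM (median 18.7) in the tumours, with T3 the lowest and T9 the highest tumour. It rose by 1.09 ± 0.25 (adjusted p = 0.0009), with overlapping groups. Ifi44, a microtubule-associated ISG, ran from 7.20 to 17.5 CPM (median 13.8) in liver and from 11.5 to 39.99 CPM (median 19.6) in tumours, and rose by 0.71 (adjusted p = 0.0036). The other 5 that rose were Tap1 at 0.51 (adjusted p = 0.0082), Oas1a, an oligoadenylate synthetase, at 0.50 (adjusted p = 0.0082), the exonuclease Isg20 at 0.47, Iigp1 at 0.41 (adjusted p = 0.034) and Stat2 at 0.26 (adjusted p = 0.036).

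Of the 7 GTPases other than Iigp1, 5 were lower in the tumours, while Gbp2 (-0.29, adjusted p = 0.41) and Gbp7 (-0.26, adjusted p = 0.11) did not pass. Igtp ran from 55.7 to 110 CPM (median 76.0) in the ALIOS livers and from 23.3 to 82.2 CPM (median 45.2) in the tumours, with T14 lowest and T3 highest, and fell by 0.71 on the log2 scale (adjusted p = 0.0055). Gbp3 ran from 10.1 to 20.2 CPM in liver and from 3.79 to 18.1 CPM in tumours, and was at -0.68 (adjusted p = 0.026). Gbp6 was at -0.76 (adjusted p = 0.013), Irgm2 at -0.44 and Irgm1 at -0.37. Several tumours lay below every ALIOS liver for Igtp and Gbp3, while others lay within the range of the livers. T6 had the highest GTPase level of these tumours, 0.37 on the log2 scale above the median over 49 libraries. The paper reports that T6 clustered among non-tumour livers, and no fit here left it out.

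Psmb9 ran from 28.2 to 64.4 CPM (median 43.9) in liver and from 17.3 to 54.96 CPM (median 26.9) in the tumours, and fell by 0.70 on the log2 scale (adjusted p = 0.0021), while Tap1, whose gene lies beside it, rose. Irf7 ran from 40.1 to 99.5 CPM in liver and from 23.4 to 136 CPM (median 36.8) in tumours, at -0.67 (adjusted p = 0.031), with T2 the highest tumour. Irf1 was at -0.04 and Irf9 at -0.11, and neither passed. The other 4 that fell were Oasl1, a relative of the oligoadenylate synthetases, at -0.62 (adjusted p = 0.0016), Rtp4 at -0.46, Bst2 at -0.43 and Ifi35 at -0.41. T3 was above all other tumours of this group in 20 ISGs and T14 below all others in 16, counts without their share over all genes.

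In the same tumours 6 of 9 receptor and kinase genes were higher. Ifnlr1 ran from 0.154 to 0.925 CPM in the ALIOS livers and from 0.465 to 10.3 CPM (median 6.06) in the tumours (3.66, adjusted p = 6.3e-07), and Ifngr1 from 16.5 to 26.1 CPM and from 19.5 to 89.4 CPM (1.39, adjusted p = 4.2e-06). Of the 34 other interferon-induced genes 5 were higher and 12 lower, with Nlrc5, the activator of class I genes, at 1.13 and Parp9, an ADP-ribosyltransferase relative that partners Dtx3l, at -0.66. Of the 10 macrophage markers 8 were lower in the tumours, with a summed level of 64.6 to 589 CPM against 306 to 1154 CPM in liver. Of the plasmacytoid dendritic cell markers 2 of 2 testable (of 4) were higher. The sum of this list, which in N6 was nearly all Tcf4, ran from 30.0 to 50.4 CPM against 26.6 to 35.2 CPM. The part of both marker lists in the ISG values was not tested.

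In DEN tumours on ALIOS against the same ALIOS livers, 16 ISGs were higher and 0 lower, against 27.7% of all 14434 genes higher and 19.8% lower, with 18 under an unadjusted p of 0.05. DESeq2 called 15 higher and 1 lower (Irf7), with 7106 of all 14434 genes called in either direction. The median log2 fold change was 0.31, against 0.08 over all genes. By role, 10 of 21 antiviral effectors, 3 of 3 ISG15 conjugation genes, 1 of 3 sensors, 1 of 8 GTPases, 1 of 3 antigen processing genes and 0 of 4 transcription factors (1 under an unadjusted p of 0.05) were higher. Without T26 the count was 8, and leaving out each other library tried gave 11 to 16.

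Iigp1 ran from 302 to 447 CPM (median 361) in the ALIOS livers and from 430.2 to 1365 CPM (median 687) in the DEN tumours, so that only the lowest tumour, T25, reached into the liver range. It rose by 1.06 ± 0.18 (adjusted p = 9.1e-05). Tap1 ran from 15.6 to 31.4 CPM in liver and from 26.7 to 62.8 CPM (median 38.1) in the tumours, and rose by 0.78 (adjusted p = 0.00043). T26 was highest of the 8 tumours in both genes.

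Oas1a ran from 5.22 to 14.8 CPM (median 9.87) in liver and from 14.6 to 88.3 CPM (median 18.1) in the DEN tumours, with T24 far above the other tumours. It rose by 1.45 ± 0.30 (adjusted p = 0.00061), and by 0.91 (adjusted p = 0.00013) without T24. Usp18, which removes ISG15 and blocks the type I receptor, ran from 5.19 to 21.4 CPM in liver and from 13.1 to 83.3 CPM in the tumours, and rose by 1.21 ± 0.31 (adjusted p = 0.0034), or by 0.71 (adjusted p = 0.0064) without T24. The T24 tumour thus moved both values by over 1.5 times without ending either call.

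The other effectors that rose were Ifi44 at 1.17 (adjusted p = 0.00065), Ifit2 at 1.09 (adjusted p = 0.0043), Isg20 at 0.75, Mx1, a GTPase that traps viral capsids, at 0.70, Oas2 at 0.66, Ifit1 at 0.61, Eif2ak2, the kinase PKR, at 0.50, Xaf1 at 0.41 and Ifi27 at 0.33. Isg15 (7.87 to 31.1 CPM in liver, 16.3 to 32.8 CPM in tumours) rose by 0.59, Trim25 by 0.17 and the sensor Ddx58 (RIG-I) by 0.33. Of 13 alternatives other than the block, 1 kept the call of Trim25, 3 that of Ifi27, 4 that of Ifit1 and 6 that of Isg15, while all 13 kept that of Usp18. Irf7 had the lowest value, at -0.43 (adjusted p = 0.081), and Irf1, Irf9 and Stat2 were at 0.13, 0.09 and 0.22. Groups overlapped in all of these genes.

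T24 was above every other DEN tumour on ALIOS in 13 ISGs and below every other in 9, and T26 was above every other in 13. These counts too were made for the ISGs only. In T24 the 10 T cell markers summed to 29.6 CPM and the 7 NK markers to 20.4 CPM, the highest of this group (3.04 to 29.6 and 1.88 to 20.4 CPM), and its 10 hepatocyte markers to 83896 CPM, the lowest of the group. In T26 they summed to 21.7, 13.1 and 173710 CPM. Over the group 3 of 6 testable NK markers were higher than in liver, 0 of 9 testable T cell markers were (1 under an unadjusted p of 0.05), and 2 of 10 macrophage markers were lower (67.0 to 703 CPM against 306 to 1154 CPM). Their part in the ISG values was not tested.

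Receptor and kinase genes were higher here in 7 of 9, with Ifnlr1 at 3.55, Ifngr1 at 1.73 and Tyk2 at 0.50. Of the 34 other interferon-induced genes 12 were higher and 2 lower. Those 2 were Dtx3l at -0.63 (adjusted p = 9.1e-06) and its partner Parp9 at -0.47 (adjusted p = 2.6e-05), while Cmpk2, a mitochondrial kinase beside Rsad2, rose by 1.08 and Gbp9 by 1.33.

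In DEN tumours on the control diet against control-diet liver, 3 ISGs were higher and 3 lower with N6 kept, against 27.3% of all 14731 genes higher and 24.4% lower. The median log2 fold change was -0.02 against 0.03 over all genes. Without N6, 19 were higher and 2 lower, against 27.8% of all 14686 genes higher and 24.1% lower, and the median was 0.33 against 0.03. DESeq2 gave 11 higher and 3 lower with N6 kept, with 7877 of all 14731 genes called in either direction. It again replaced outlying counts by default, and here it was not run without the replacement. These calls therefore do not show what holds with N6 at its own counts. Without N6, 11 of 21 antiviral effectors, 3 of 8 GTPases, 2 of 3 antigen processing genes, 2 of 3 ISG15 conjugation genes, 1 of 3 sensors and 0 of 4 transcription factors were higher, with 0 of those 4 under an unadjusted p of 0.05.

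Ifit2 was at 24.2, 23.3, 12.3, 17.5 and 14.9 CPM in T17 to T21, against 2.20 to 5.22 CPM (median 4.05) in the control-diet livers other than N6, and 18.6 CPM in N6. Every tumour was above every liver except N6. Ifit2 rose by 1.86 ± 0.35 (adjusted p = 0.00016) with N6 and by 2.25 ± 0.18 (adjusted p = 7.8e-09) without it. Ifi44 was at 35.0, 31.1, 19.2, 19.1 and 16.6 CPM against 3.52 to 10.5 CPM, and 40.7 CPM in N6, and rose by 1.46 (adjusted p = 0.01) with N6 and by 2.02 (adjusted p = 5.4e-07) without it. Ifit1, Ifit3 and Samd9l, a restriction factor, also did not overlap without N6 and rose by 1.42, 1.20 and 0.85, against 0.50, 0.33 and 0.59 with it, where none passed. Isg20 rose with N6 (0.67, adjusted p = 0.031) and without it (0.85). How many of all genes did not overlap in this comparison is not given here.

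Tap1 was at 53.4, 44.7, 51.5, 41.8 and 16.8 CPM in the 5 tumours against 12.6 to 19.7 CPM in the livers other than N6 (127 CPM). Only T21 lay within the livers. Tap1 rose by 1.45 (adjusted p = 2.2e-06) without N6 and was at 0.77 (adjusted p = 0.19) with it. Iigp1, at 1091, 865, 658, 600 and 371 CPM against 277 to 402 CPM, rose by 1.19 (adjusted p = 1.3e-05) without N6 and was at -0.01 with it.

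Mx2, a relative of Mx1, and Gbp6 fell in both fits. Mx2 was at 6.01, 6.26, 8.63, 9.97 and 3.45 CPM in the tumours against 9.18 to 28.6 CPM (median 12.9) in the livers other than N6 (68.9 CPM), at -1.48 (adjusted p = 0.008) with N6 and -1.10 (adjusted p = 0.0017) without it. Gbp6 was at 1.25, 1.28, 0.692, 1.03 and 0.675 CPM against 0.992 to 2.66 CPM, at -1.78 ± 0.71 (adjusted p = 0.044) and -0.79 ± 0.24 (adjusted p = 0.010), so the size of its fall rests on N6 (22.1 CPM). Bst2 was at -0.41 (adjusted p = 0.044) with N6 and -0.33 (adjusted p = 0.055) without it. The count of ISGs that fell was 1 without T17, T18 or T21.

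The transcription factors gave no call in these tumours. Irf7 was at 44.6, 31.8, 57.4, 43.3 and 31.9 CPM against 37.1 to 68.6 CPM in the livers other than N6 (293 CPM), at -0.73 (adjusted p = 0.16) with N6 and -0.24 without it. Irf1 was at -0.19 with N6 and 0.25 without it, Irf9 at -0.08 and 0.03, and Stat2 at 0.00 and 0.09.

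T17 was above the other 4 tumours of this group in 20 ISGs and T21 below the other 4 in 24. In a group of 5 some tumour is highest and some lowest in each gene, and the share over all genes was not counted. Ifngr1 was at 67.0, 52.5, 50.9, 66.4 and 62.8 CPM against 13.4 to 20.9 CPM in all 12 livers, N6 among them, with no overlap (1.90, adjusted p = 6.1e-12). Ifnlr1 was at 4.74, Ifngr2 at 1.004 and Il10rb, the shared lambda receptor chain, at 0.89, and 6 of 9 receptor and kinase genes were higher both with and without N6. Of the 34 other interferon-induced genes 4 were higher and 2 lower with N6, and 16 higher and 3 lower without it, led by Cxcl10 at 3.04 and Gbp9 at 1.73. Of 6 testable T cell markers (of 10) 4 were higher and 1 lower, of 10 macrophage markers 5 were lower (4 without N6), and their summed levels ran from 3.27 to 12.1 CPM and from 100.4 to 325 CPM. Their part in the ISG values was not tested.

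**Figure D4:**
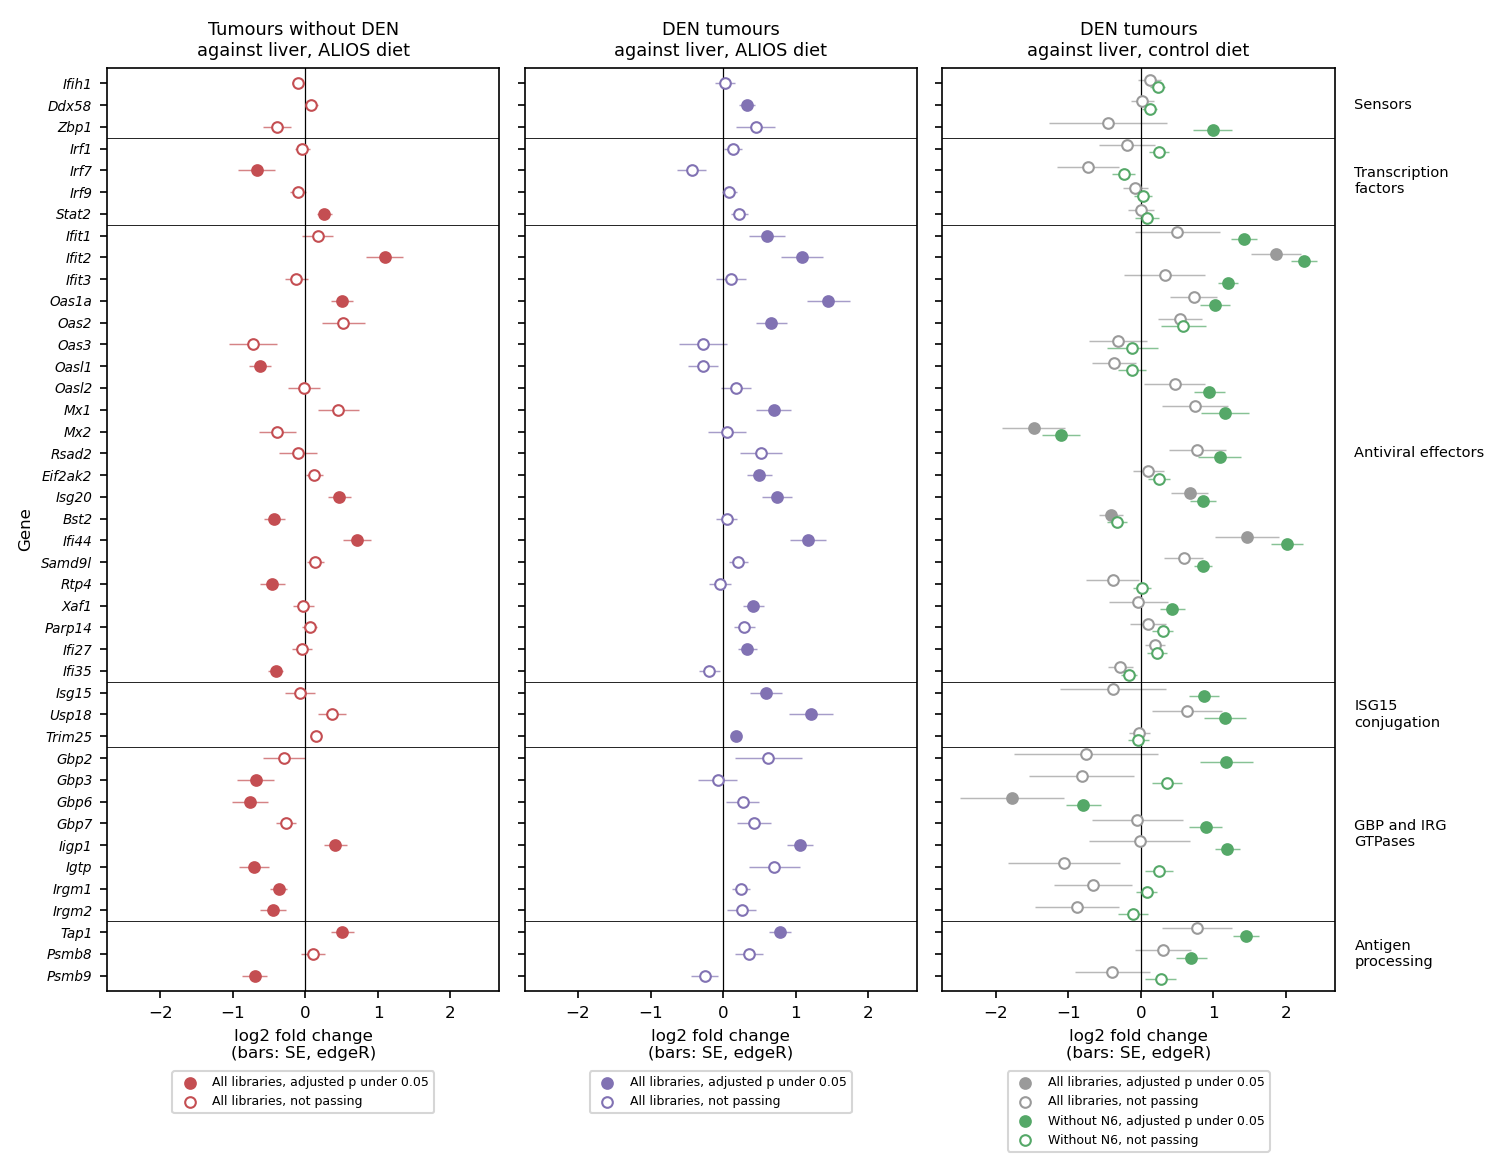
Log2 fold change (edgeR, bars SE, filled where the adjusted p is under 0.05) of the 42 ISGs in tumours against non-tumour liver of the same diet: tumours without DEN on ALIOS (left), DEN tumours on ALIOS (middle) and DEN tumours on the control diet with N6 (grey) and without it (green, right). Filled points fall on both sides of 0 at the left, 7 higher and 11 lower, and all 16 lie above 0 in the middle; the left and middle panels share their livers.

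Tumours of both kinds on ALIOS were then compared with each other. No gene of 14845 passed by edgeR between DEN tumours and tumours without DEN (0.0% higher, 0.0% lower), so 0 of the 42 ISGs did. Of the ISGs 14 were under an unadjusted p of 0.05, a count without its share over all genes. DESeq2 called 1 ISG, Irgm1, at 0.56, and 75 of all 14845 genes in either direction. The median log2 fold change was 0.35 against 0.00 over all genes, with 39 of 42 values above 0. Igtp had the largest value, at 1.38 ± 0.38, with 36.9 to 410 CPM in the DEN tumours and 23.3 to 82.2 CPM in those without DEN, and Stat2 the lowest, at -0.09. Irf1, Irf7 and Irf9 were at 0.12, 0.18 and 0.14.

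Diet within DEN tumours gave 0 ISGs by edgeR in either direction, against 0.0% of all 14944 genes higher and 0.0134% lower (2 genes), with 6 ISGs under an unadjusted p of 0.05. DESeq2 called 1, Gbp6, and 155 of all 14944 genes in either direction. The median was 0.25 against 0.04 over all genes. Gbp6 had the largest value, at 1.37 ± 0.35 (adjusted p = 0.26), with 1.26 to 5.14 CPM on ALIOS against 0.675 to 1.28 CPM on the control diet, and Tap1 the lowest, at -0.09. Irf1, Irf7, Irf9 and Stat2 were at 0.15, 0.46, 0.19 and 0.11.

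Whether the effect of diet differed between DEN tumours and liver was tested as an interaction. With N6, 0 ISGs passed by edgeR in either direction, against 1.04% of all 15606 genes higher and 1.23% lower, and 4 were under an unadjusted p of 0.05. DESeq2, again with outlying counts replaced, called Mx2 and Gbp6 higher and Ifit3 lower, with 657 of all 15606 genes called in either direction. Without N6, 1 passed, Ifit3 at -1.10 ± 0.28 (adjusted p = 0.03), against 0.994% of all 15599 genes higher and 1.26% lower: Ifit3 was higher on ALIOS in liver, and at 20.7 to 28.0 CPM on the control diet and 8.79 to 37.8 CPM on ALIOS in the DEN tumours. Gbp6 had the highest interaction value with N6, at 2.05, and Mx2 without it, at 1.14, while Ifit2 was lowest in both, at -0.77 and -1.17. Irf1, Irf7, Irf9 and Stat2 were at 0.33, 0.30, 0.16 and 0.22 with N6 and at -0.12, -0.21, 0.05 and 0.13 without it. The median over the ISGs was 0.21 with N6 and -0.13 without it, against 0.04 and 0.03 over all genes.

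**Figure D5:**
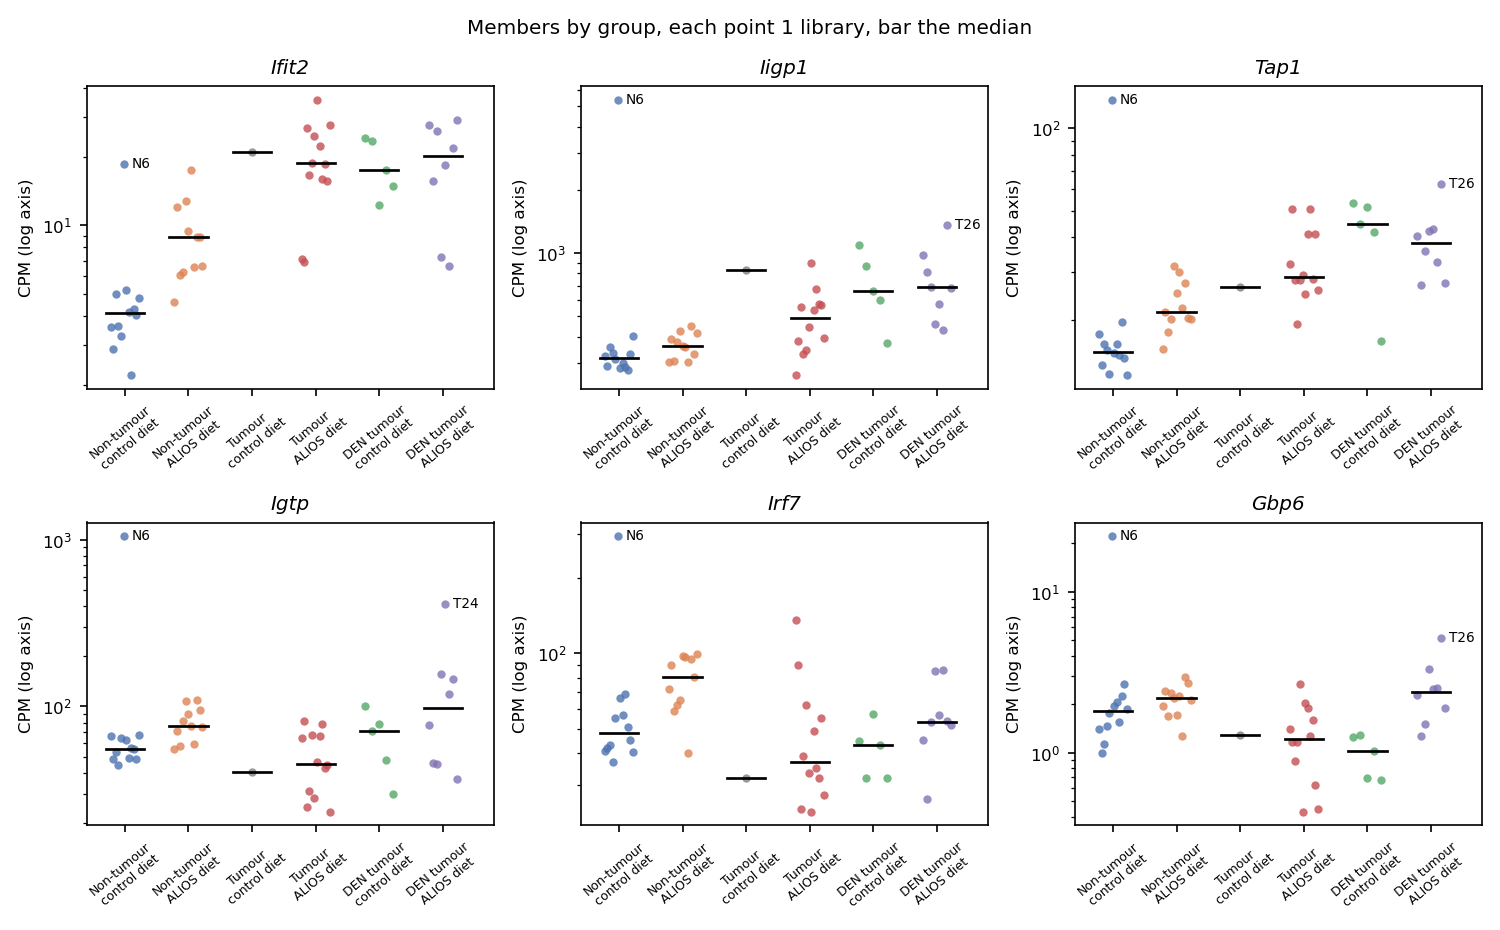
CPM (log axis) of Ifit2, Iigp1, Tap1, Igtp, Irf7 and Gbp6 in the 6 groups, each point 1 library and each bar the group median, with N6, T24 and T26 named where they are the highest. The Ifit2 bar lies higher in every tumour group and in ALIOS liver than in control-diet liver, and the Irf7 bar is highest in ALIOS liver (80.9 CPM).

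The ISGs did not move as 1 block across libraries. With group means removed and N6 and T7 left out, the median Pearson correlation between members of a role over 47 libraries was 0.75 for antigen processing, 0.59 for the GTPases, 0.53 for the transcription factors, 0.34 for the effectors, 0.14 for the sensors and -0.23 for ISG15 conjugation, a description in which all points share depth and normalisation. Usp18 and Oas1a were the closest pair named, at 0.861, with T24 high in both, followed by Xaf1 and Rtp4 at 0.850. Ifit2 (-0.079) and Iigp1 (0.025) had medians near 0 with the other ISGs, although both were higher in the tumours, while Xaf1 had the highest median, 0.51.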

How the data were processed

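RNA from non-tumour liver and tumours was sequenced by the study from stranded mRNA libraries with RNA integrity above 8. The authors deposited raw counts per gene, which HTSeq made on Gencode M6 exons (intersection-nonempty) from STAR 2-pass alignments to mm10. Tool versions are not given in the sources used here. Rows were named by symbols in the table or from Gencode M21.

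From these counts, edgeR 4.0.16 (filterByExpr, TMM scaling, quasi-likelihood test, R 4.3.3) was fitted to the groups of each comparison, with Benjamini-Hochberg adjustment over all genes and a threshold of 0.05. Log2 CPM used a prior count of 2. DESeq2 1.42.0, its size factors, no filter, all 6 groups together, a block on shared sample numbers and left-out libraries were alternatives. Fits were also run on simulated counts. Those held no outlying library, so they do not cover a case like N6. Depth was 23798251 to 45751398 counts, and low counts limit precision most in Gbp6, Mx1 and Oas3.

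The 42 genes, their roles, the other interferon lists and the cell markers were chosen with earlier results of these data known. The rule named the 4 transcription factors in each comparison, the highest and lowest ISG, up to 6 called ISGs by size, up to 4 called ISGs without overlap, and up to 4 called genes of each other list by p. Other genes named were chosen after their values were seen, as were the fits without N6. T1 was not used, and 1 gene that the rule named is not reported here. Groups came from the labels.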

Additional observations from a re-analysis of the deposited data

Results flagged for a closer look

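A search of the 84 sets made by the 42 ISGs in both DEN groups found 5 with 1 library far from the others of its group, where chance gives about 4.2 (1 in 20). In the DEN tumours on ALIOS, T24 stood above the rest for Oas1a (6.46 on the log2 CPM scale, the others 3.88 to 4.55) and for Usp18 (6.38, the others 3.72 to 4.62). In the DEN tumours on the control diet, T21 stood below the rest for Tap1 (4.08, the others 5.39 to 5.74) and for Psmb9 (3.96, the others 4.93 to 5.20), and T18 stood below the rest for Oas3 (-0.37, the others 0.42 to 0.63).

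T7, the only tumour without DEN on the control diet, entered no comparison. Its Ifit2 level of 20.9 CPM and its level of Rsad2 (viperin, an antiviral enzyme), 25.4 CPM, were above every control-diet liver, whose highest values, both in N6, were 18.6 and 16.8 CPM.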

How the results depend on the processing

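Of 220 recomputed counts of ISGs passing, 188 stayed within 1.5 times the reported count and 32 did not. Of 1153 recomputed single values, 1028 kept direction and side of the threshold, 73 lost their call, 13 gained one and 39 changed sign. Calls kept under every alternative other than the block were 6 of 16 in DEN tumours on ALIOS, 3 of 6 in DEN tumours on the control diet and 7 of 18 in tumours without DEN. The cause was not tested, except that N6 and fewer or more samples in a fit are set by the alternative itself. In liver, the fit of all 6 groups called 623 genes of any kind in place of 1542.

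With N6 kept, the DESeq2 test gave 14 higher by diet in liver (2 with outlying counts not replaced), with Irf1 at 0.23 and Iigp1 at 0.18. For DEN tumours on the control diet it gave 11 higher, with outlying counts replaced and Irf1 at 0.22. It gave 1 lower in DEN tumours on ALIOS, 1 higher between DEN tumours and tumours without DEN, 1 higher by diet in DEN tumours, and 2 higher and 1 lower in the interaction. Fitting all 6 groups together gave 3 higher and 5 lower in tumours without DEN, 7 higher in DEN tumours on ALIOS and 12 higher by diet in liver without N6. No filter on low counts gave 9 higher in DEN tumours on ALIOS. Stat2 in DEN tumours on the control diet was at -0.011 with DESeq2 size factors, -0.032 without the filter, -0.011 by DESeq2 and -0.038 with all groups.

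Beside the values without N6, keeping it gave 0 higher by diet in liver (Irf1 -0.19, Gbp2 -0.56, Gbp3 -0.16), 3 higher in DEN tumours on the control diet (Irf1 -0.19, Irf9 -0.076, Iigp1 -0.014) and 0 lower in the interaction (Irf1 0.33, Irf7 0.30).

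Leaving out 1 library at a time, the diet comparison in liver gave 0 to 20 higher (20 without N6, and 2 without N7 or N13), with Irf1 from -0.26 to 0.25, Irf9 from -0.023 to 0.12 and Iigp1 from -1.11 to 0.19. DEN tumours on ALIOS gave 8 (without T26) to 16 higher and 0 to 1 lower (1 without T23, T24 or T25). DEN tumours on the control diet gave 2 to 19 higher (19 without N6) and 1 to 3 lower, with Irf1 from -0.26 to 0.25, Irf9 from -0.15 to 0.029 and Stat2 from -0.18 to 0.085. For diet in DEN tumours Tap1 ran from -0.29 to 0.021, and the interaction gave 0 to 1 higher (Mx2 without T24) and 0 to 1 lower, with Irf1 from -0.12 to 0.40 and Irf7 from -0.21 to 0.44.

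The block on shared sample numbers, possible for 2 numbers in tumours without DEN and 4 in DEN tumours on ALIOS, gave 0 higher and 0 lower (Stat2 -0.15) and 1 higher, Tap1 (Irf1 -0.10, Irf9 -0.066). The deviations of same-numbered samples correlated at -0.205 to 0.0551 and 0 of 6 correlated best with its own number, so the numbers were not taken as pairing the samples. Whether same-numbered samples came from 1 animal is not known here.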

Other observations

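Some sensing genes upstream of interferon also differed in the tumours. Of 13, 2 were higher and 2 lower in tumours without DEN, and 4 higher and 1 lower in DEN tumours on ALIOS. On the control diet 4 were higher and 1 lower in DEN tumours (7 and 1 without N6). Over all genes 26.9%, 27.7% and, with N6, 27.3% were higher in these comparisons, and 25.9%, 19.8% and 24.4% lower. Mavs, the mitochondrial adaptor through which RIG-I signals, was lower in tumours without DEN (-0.36 on the log2 scale, edgeR adjusted p = 0.00089), in DEN tumours on ALIOS (-0.56, adjusted p = 0.00064) and in DEN tumours on the control diet (-0.55, adjusted p = 0.00082 with N6, and -0.54 without it). Ikbke, a kinase that activates Irf3, was higher in the same comparisons, at 0.76, 0.66 and, with N6, 0.72 (adjusted p = 0.0027, 0.012 and 0.043). The last of these Ikbke calls was lost in many of its alternatives, whose adjusted p ran from 0.0074 to 0.10 (0.85 and adjusted p = 0.012 without N6). Of the brakes, Pias1 was higher at 0.48, 0.57 and 0.55 (0.53 without N6). The first 2 of these comparisons share their livers.

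Parp9 and Dtx3l, a divergent gene pair whose products work together, were lower in tumours. Parp9 ran from 35.8 to 49.7 CPM in the control-diet livers other than N6 (107 CPM) and from 22.6 to 27.5 CPM in the DEN tumours on the control diet (-0.83 with N6, -0.65 without it), with no overlap. Dtx3l ran from 45.7 to 58.4 CPM (N6 96.9 CPM) and from 23.7 to 37.5 CPM (-0.82 and -0.72). In tumours without DEN they were at -0.66 and -0.67.

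In T7, which has no replicate, Ifit1 (29.3 CPM), Ifit3 (33.2 CPM) and Rsad2 (25.4 CPM) were above every tumour without DEN on ALIOS, and Zbp1, Oas2, Isg20 and Psmb8 were below every one of them.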
